A study of Mus musculus with 23 samples.

Results

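Non-tumor colon of HFD-fed Cdx2Apcf/w mice colonized with BF BSHhigh for 12 weeks was compared with that of mice colonized with BF BSHlow. The comparison held 8 of the 23 libraries of the series, 4 per group, and was read across all genes, from single transcripts to gene programs whose members each differed by little. All mice were male, on a C57BL/6 background, 6 to 8 weeks old at the start and fed a diet with 60% fat, and were colonized after antibiotics in the drinking water, by the labels 2 times a week until week 12 (the study's methods give a different interval). BF BSHlow is Bacteroides fragilis 638R, labelled BF638R bsh-, which by the study's methods carries an empty vector. BF BSHhigh is the same strain with the bsh gene of another B. fragilis strain in that vector, labelled BF638R bsh+. Both groups carried the Cdx2-driven Cre and 1 floxed Apc allele, which limits the model to an epithelium already predisposed to colon tumors. The mice were housed several to a cage, and neither the cage nor the animal of each library was given, so p-values measure the spread between these libraries only. A second pair of groups, normal colon after week 2 under the same diet and strains, with 4 libraries each, was used where the effect at 12 weeks was set beside an earlier one.

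Bile salt hydrolase (BSH) removes the taurine or glycine from conjugated bile acids, the first step by which gut bacteria reshape the bile acid pool. Free and secondary bile acids act on the colon epithelium through receptors such as FXR and TGR5 and can also act as detergents at the mucosal surface. The epithelium faces them through a mucus layer, which goblet cells build from heavily O-glycosylated MUC2, and through absorptive colonocytes, which import, oxidize and export lipids and foreign compounds. Interferon-stimulated genes and antimicrobial lectins form further layers of its defence against microbes.

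Total expected counts were between 13330888 and 17103225 in the BSHlow group and between 13369559 and 17064730 in the BSHhigh group. Goblet cell genes (20 of 20 listed tested) and colonocyte genes (19 of 20) were present in every library, and 12 of 17 squamous genes were too low to be tested, among them Krt5, Krt13 and Trp63. A pair of libraries stood apart from the other 6. Hoxd13, a gene of the posterior body axis, had 122, 121, 151 and 8.93 CPM in BSHlow replicates 1 to 4 and 7.12, 144, 150 and 130 CPM in BSHhigh replicates 1 to 4. Hoxd10, Hoxd11 and Hoxd12 were low in the same pair, whereas Hoxb13 stayed between 372 and 556 CPM in all 8. BSHlow replicate 4 also had the lowest B cell follicle and stroma levels and the highest fatty acid oxidation level, and BSHhigh replicate 1 had the largest share of mitochondrial counts, 6.85% against 4.43% to 5.46% in the others. The position of each piece along the colon was not given, and its part in the results was not tested. Counts that rest on these libraries are therefore also given without BSHlow replicate 4 and BSHhigh replicate 1, a choice made after their values were seen.

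**Figure D1:**
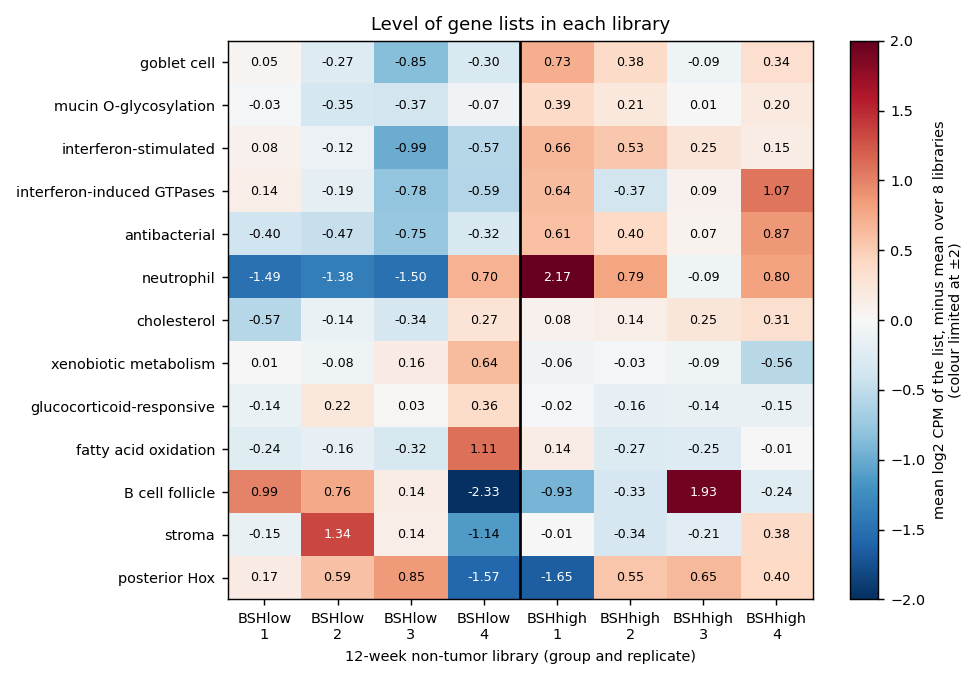
Each cell is the mean log2 CPM of a gene list in a 12-week non-tumor library (columns: group and replicate) minus the mean over the 8 libraries, in log2 units, with red above and blue below that mean. Posterior Hox genes were low in BSHlow 4 (-1.57) and BSHhigh 1 (-1.65), the O-glycosylation, interferon-stimulated and antibacterial lists were higher in each BSHhigh library than in any BSHlow library, and the B cell follicle, stroma and fatty acid lists varied among libraries of one group.

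No single gene passed the adjusted test in edgeR. Of 14933 genes tested, edgeR called 0 higher and 0 lower in BSHhigh past an adjusted p of 0.05, with or without a minimum log2 fold change of 1 (0% in each direction), and the smallest adjusted p was 0.181. At an unadjusted p under 0.05, 792 genes (5.3%) were higher and 585 (3.92%) lower, and the latter count was 749 without BSHlow replicate 4 and 370 without BSHhigh replicate 1. Without both libraries, 736 of 14972 genes tested were higher and 467 lower at that threshold. List counts without both are read against these. DESeq2 called 39 (0.261%) higher and 14 (0.0938%) lower past the adjusted p and the fold, and 133 (0.891%) and 36 (0.241%) past the adjusted p alone. In 448 genes (3%) all 4 BSHhigh libraries lay above all 4 BSHlow libraries, and in 370 (2.48%) all lay below. Over all genes the log2 fold change had a median of -0.01 and quartiles of -0.14 and 0.13. Differences are therefore described below by their values, and the counts of each gene list are read against these shares.

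**Figure D2:**
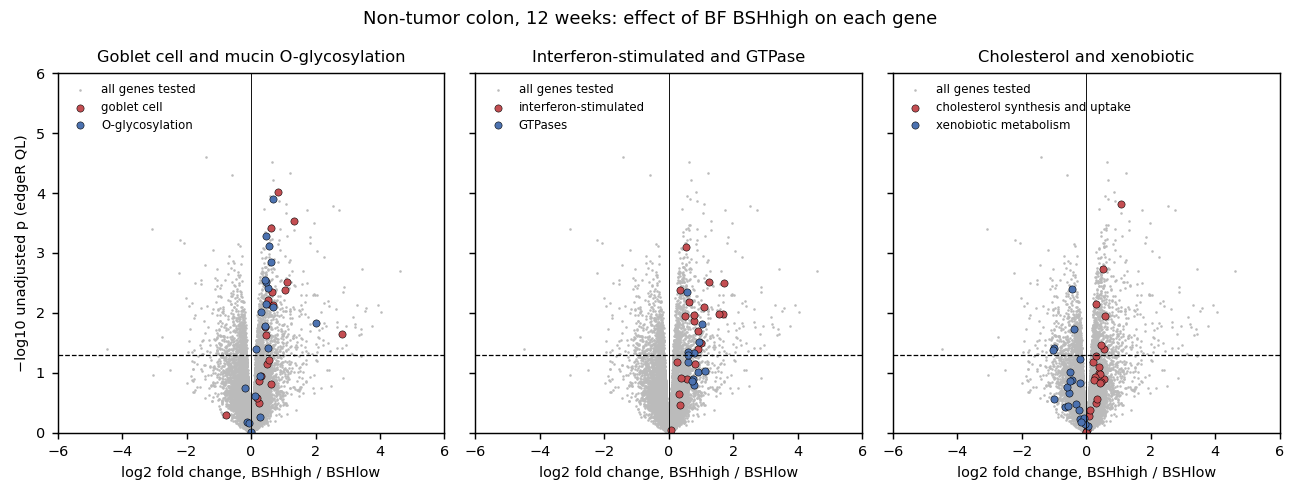
Each point is a gene of the 12-week comparison, with the log2 fold change of BSHhigh over BSHlow on the x axis and the −log10 of the unadjusted p of the edgeR quasi-likelihood (QL) test on the y axis, on which the dashed line marks an unadjusted p of 0.05. Grey points are the 14933 genes tested and coloured points the members of 2 lists per panel: goblet cell and O-glycosylation genes and the interferon-stimulated and GTPase genes lay almost all to the right of 0, and xenobiotic genes to the left.

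Most goblet cell genes had higher levels in BSHhigh. Their median log2 fold change was 0.56 (all genes: -0.01), 19 of 20 were higher in BSHhigh, 12 of 20 had an unadjusted p under 0.05 (background 5.3%) and 0 of 20 were lower at that threshold. In 6 of 20 the groups did not overlap (background 3%), and DESeq2 called 7 higher at its adjusted p (background 0.891%). Without BSHlow replicate 4 and BSHhigh replicate 1 the median was 0.52 and the count 13. In these bulk libraries more goblet cells and more RNA per goblet cell cannot be told apart.

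Agr2, a disulfide isomerase needed to fold MUC2 (chr12:35992907-36004087, GRCm38, plus strand), had 764, 780, 693 and 912 CPM in BSHlow and 1623, 1377, 1154 and 1506 CPM in BSHhigh. Every BSHhigh library lay above every BSHlow library, and the log2 fold change was 0.85 ± 0.13 (SE), with an adjusted p of 0.208 from edgeR. Spink4, a small secreted protein of goblet cells, had 665, 582, 329 and 390 CPM in BSHlow and 1353, 1243, 940 and 1360 CPM in BSHhigh. Its groups were likewise apart, by a log2 fold change of 1.32 ± 0.23. Muc2 itself, the gel-forming mucin of the colon, was less even: 2455, 1947, 1662 and 1913 CPM in BSHlow against 6432, 4069, 2330 and 3665 CPM in BSHhigh. BSHhigh replicate 3 lay inside the BSHlow range, and BSHhigh replicate 1 carried much of the log2 fold change of 1.05 ± 0.28, which was 0.74 without the pair of libraries that stood apart. Fcgbp, a mucus protein that is cross-linked to MUC2, had 4085 to 5009 CPM in BSHlow and 5269 to 8763 CPM in BSHhigh, a log2 fold change of 0.56, with reads that RSEM divided among similar genes in all 8 libraries. The membrane mucin Muc4 was at 43.9 to 60.7 CPM in BSHlow and at 62.9 to 167 CPM in BSHhigh.

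Among the factors that specify the secretory lineage, Atoh1, which commits progenitors to the secretory fate, had 55.8, 38.2, 38.9 and 44.8 CPM in BSHlow and 75.5, 65.6, 48.9 and 52.9 CPM in BSHhigh (log2 fold change 0.45 ± 0.17), and the groups overlapped. Spdef, which drives goblet cell maturation, had a log2 fold change of 0.64 ± 0.17 and overlapped in 1 BSHhigh library. Ern2, the goblet cell form of the unfolded-protein sensor IRE1, had 68.8, 51.9, 62.3 and 59.3 CPM in BSHlow and 94.5, 93.8, 77.6 and 102 CPM in BSHhigh, without overlap. Retnlb, a goblet cell product active against bacteria, ranged from 0.135 to 14.5 CPM in BSHlow and from 4.99 to 74.1 CPM in BSHhigh, so its log2 fold change of 2.82 came with an SE of 1.02. Clca1 and Zg16, both abundant goblet cell secretions, had log2 fold changes of 0.49 and 0.62 with adjusted p of 0.59 and 0.688 from edgeR, and Zg16 was highest for its group in BSHlow replicate 4 (5207 CPM).

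The enzymes that decorate mucins with O-glycans differed in the same direction as the goblet cell genes. Of 21 tested, 18 were higher in BSHhigh and 14 had an unadjusted p under 0.05 (background 5.3%), none of the 14 in the lower direction. The median was 0.45, in 10 of 21 the groups did not overlap (background 3%), and DESeq2 called 7 higher (background 0.891%). When BSHlow replicate 4 and BSHhigh replicate 1 were left out, the median was 0.42 and 10 were higher at the unadjusted threshold. Mean log2 CPM of the list was 6.38 to 6.72 in BSHlow and 6.76 to 7.14 in BSHhigh, without overlap. The largest group was the GalNAc transferases, which attach the first sugar to serine or threonine. Galnt5 had 35.9, 31.1, 38.6 and 34.3 CPM in BSHlow and 51, 58.3, 48.9 and 63.5 CPM in BSHhigh, and Galnt7 had 208, 184, 175 and 199 CPM against 285, 266, 237 and 257 CPM. Neither gene overlapped between the groups, and their log2 fold changes were 0.66 ± 0.10 and 0.45 ± 0.08. Galnt3, Galnt4 and Galnt12 did not overlap either (0.55, 0.16 and 0.62), while Galnt10 did (0.47).

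Core 1 enzymes were higher too, past an adjusted p of 0.05 in DESeq2 but not in edgeR. C1galt1, which adds the galactose of the core 1 structure, had 295, 242, 223 and 282 CPM in BSHlow and 443, 336, 314 and 394 CPM in BSHhigh, and its chaperone C1galt1c1 (Cosmc) had 49.4 to 59.9 CPM against 63.3 to 89.8 CPM. Both pairs of groups were apart, with log2 fold changes of 0.51 ± 0.13 and 0.46 ± 0.11. St6galnac6, a sialyltransferase, had a log2 fold change of 0.45 ± 0.11 and B4galnt2, which makes the Sda/Cad antigen of colon mucins, of 0.69 ± 0.20, again without overlap. The Golgi importer of CMP-sialic acid, Slc35a1, was at 125 to 144 CPM in BSHlow and 150 to 196 CPM in BSHhigh. Not every member followed: B3gnt7, at 519 to 869 CPM one of the most abundant, had a log2 fold change of 0.00 ± 0.17, and St3gal4 one of -0.14 ± 0.31, with its highest value in BSHlow replicate 4 (652 CPM). Folding genes of the endoplasmic reticulum had a median of 0.06, with 17 of 22 positive and 4 higher and 1 lower at the unadjusted threshold (background 5.3% and 3.92%), and without the pair of libraries that stood apart a median of 0.15, with 6 higher and 0 lower. Hspa5 (BiP), the general chaperone, had a log2 fold change of 0.02 ± 0.15, while the protein disulfide isomerases Pdia3 and Pdia5 had 0.33 and 0.50 without overlap.

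**Figure D3:**
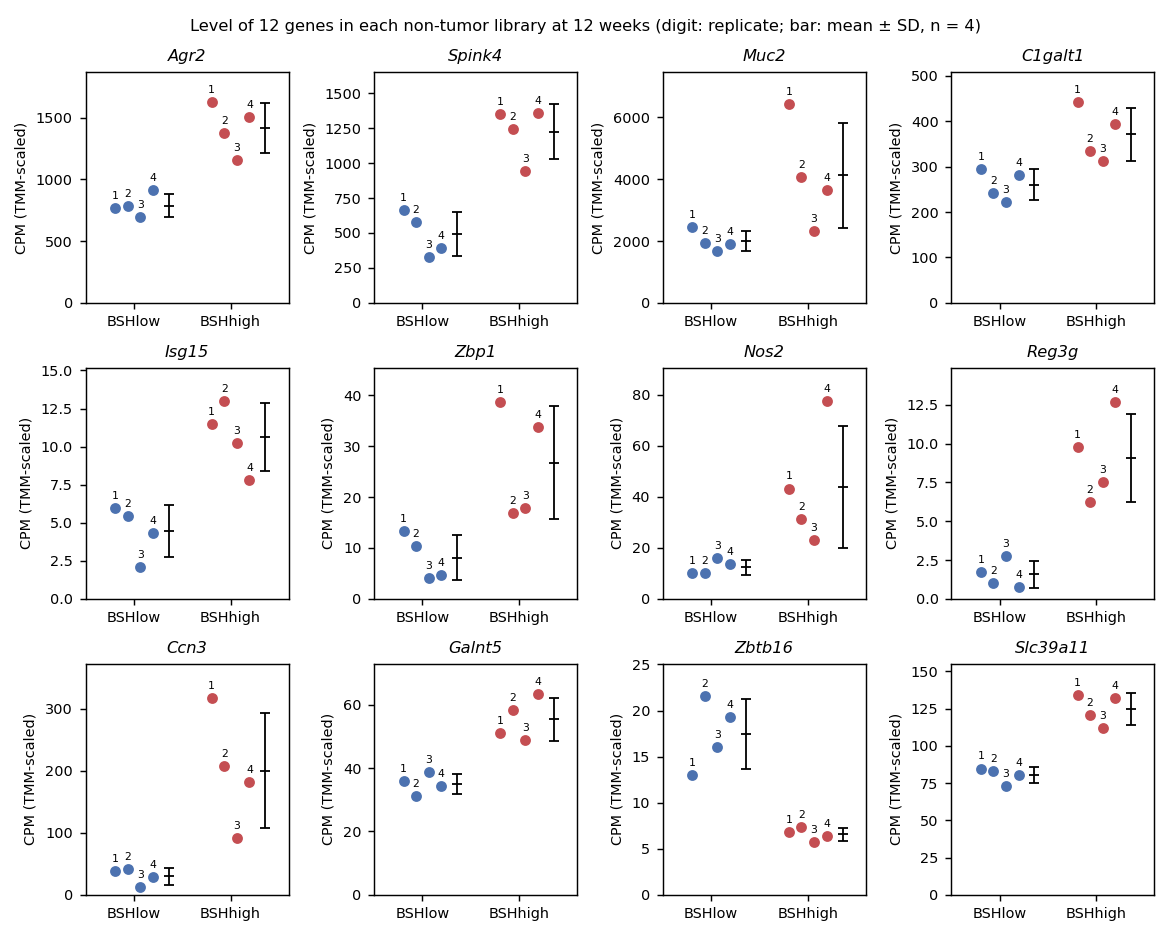
Each panel shows the TMM-scaled CPM of a gene (y axis, from 0) in the 4 BSHlow (blue) and 4 BSHhigh (red) non-tumor libraries of 12 weeks, with the replicate number above each point and the mean ± SD (n = 4) as a black bar. The groups do not overlap in 11 panels; in Muc2, BSHhigh replicate 3 (2330 CPM) lies below BSHlow replicate 1 (2455 CPM).

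Interferon-stimulated genes were higher as a group. All 21 tested had a positive log2 fold change, with a median of 0.79, and 14 of 21 had an unadjusted p under 0.05 (background 5.3%). In 8 of 21 the groups did not overlap (background 3%) and DESeq2 called 3 higher (background 0.891%). Without BSHlow replicate 4 and BSHhigh replicate 1 the median was 0.51 and the count 6, so part of both rested on these libraries. T cell and B cell follicle genes mark the lymphoid cells that a piece of colon can hold. These lists and the MHC class II list had medians of 0.08, 0.29 and 0.10. Each had 0 genes at the unadjusted threshold in either direction. These medians rested on single libraries, and without BSHhigh replicate 3 they were -0.39, -0.87 and -0.32, and without BSHlow replicate 4 -0.18, -0.084 and -0.20. Their summed levels overlapped between the groups: 21.4 to 77.7 CPM in BSHlow and 35.9 to 98.1 CPM in BSHhigh for T cell genes, 35.5 to 323 CPM and 86.7 to 619 CPM for B cell follicle genes, and 319 to 1410 CPM and 550 to 1659 CPM for MHC class II genes.

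Many of these genes are switched on through the interferon-stimulated response element, searched here as GAAA, any 2 bases, and GAAA again. On either strand of RefSeq promoters (250 bases before to 50 bases after the start, GRCm38.p6) these letters were in 9 of the 14 listed genes that matched, against 1079 of 27025 genes (3.99%). The bases before the start are printed for Isg15 (chr4:156200819-156201068, minus strand), Oas1a (chr5:120907526-120907775, minus strand) and Stat2 (chr10:128270248-128270497, plus strand), the 3 genes of the list that hold the letters and whose groups did not overlap, with the matches in capitals, overlapping ones merged:

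Isg15: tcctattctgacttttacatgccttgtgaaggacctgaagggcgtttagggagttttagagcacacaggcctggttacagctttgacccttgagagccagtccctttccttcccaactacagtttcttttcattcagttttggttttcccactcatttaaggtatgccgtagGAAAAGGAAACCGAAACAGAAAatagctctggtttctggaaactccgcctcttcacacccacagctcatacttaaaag
Oas1a: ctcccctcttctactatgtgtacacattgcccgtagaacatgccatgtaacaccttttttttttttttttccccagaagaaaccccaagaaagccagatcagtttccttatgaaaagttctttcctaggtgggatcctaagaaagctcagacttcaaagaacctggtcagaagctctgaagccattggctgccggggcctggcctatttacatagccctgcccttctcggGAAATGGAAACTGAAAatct
Stat2: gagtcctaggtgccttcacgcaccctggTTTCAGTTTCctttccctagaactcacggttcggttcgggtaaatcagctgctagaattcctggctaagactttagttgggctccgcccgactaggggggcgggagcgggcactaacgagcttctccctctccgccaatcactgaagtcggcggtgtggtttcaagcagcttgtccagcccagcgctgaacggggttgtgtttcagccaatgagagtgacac

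The first match began 78 bases before the start in Isg15, 20 in Oas1a and 222 in Stat2. A match describes the letters and not the binding of a factor.

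Isg15, a ubiquitin-like modifier, had 5.96, 5.47, 2.09 and 4.33 CPM in BSHlow and 11.5, 13, 10.2 and 7.79 CPM in BSHhigh. Stat2, a subunit of the factor that binds the element, had 25.1, 25.8, 19.2 and 24.6 CPM against 33.2, 35.4, 31.5 and 37 CPM. The groups were apart for both, by log2 fold changes of 1.25 ± 0.31 and 0.53 ± 0.11. Zbp1, a sensor of nucleic acids that can trigger necroptosis, had 13.3, 10.3, 4.11 and 4.72 CPM in BSHlow and 38.8, 16.8, 17.8 and 33.8 CPM in BSHhigh (log2 fold change 1.72 ± 0.43, adjusted p of 0.329 from edgeR). Irf7, the factor that amplifies the response, had 39.9 to 66.2 CPM against 68.7 to 101 CPM, and overlaps Phrf1 in the annotation. Oas1a, one of several near-identical synthetases whose reads RSEM divided in all 8 libraries, had 53.2 to 66.6 CPM against 71.8 to 84.6 CPM.

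The interferon-induced GTPases, which attack the vacuoles of intracellular microbes, were positive in 12 of 12, with a median of 0.76. Only Irgm1 did not overlap (30 to 45.2 CPM against 46 to 66.7 CPM), 1 of 12 against a background of 3%. At an unadjusted p under 0.05, only 5 were higher (background 5.3%). Without the pair of libraries that stood apart 1 of 12 remained at that threshold. Gbp2 had 34.3, 29.4, 22.7 and 25.4 CPM in BSHlow and 67.4, 30.8, 34.5 and 94.6 CPM in BSHhigh, so that BSHhigh replicates 1 and 4 made most of its log2 fold change of 1.02 ± 0.34. The element was in the promoters of 9 of 9 matched GTPase genes. MHC class I genes and their peptide-loading partners were positive in 13 of 13 by a smaller median of 0.30, with 6 at the unadjusted threshold (background 5.3%). When both libraries were left out, the median was 0.18, with 2 at that threshold. Tap1, the peptide transporter, had a log2 fold change of 0.75 ± 0.23, and H2-D1, with reads divided among related genes, one of 0.34 ± 0.10.

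Antibacterial genes of the epithelium differed unevenly. Of 16 tested, 15 were positive, with a median of 0.62. At an unadjusted p under 0.05, 7 were higher (background 5.3%) and 0 lower. In 2 the groups did not overlap (background 3%). The mean log2 CPM of the list was 5.29 to 5.73 in BSHlow and 6.11 to 6.91 in BSHhigh. Nos2, the inducible nitric oxide synthase, had 9.91, 10.1, 15.9 and 13.5 CPM in BSHlow and 43.2, 31.2, 23.2 and 77.3 CPM in BSHhigh. Reg3g, a lectin that kills Gram-positive bacteria, had 1.71, 1.04, 2.77 and 0.776 CPM against 9.78, 6.22, 7.55 and 12.7 CPM. Each BSHhigh library was above each BSHlow library for both, by log2 fold changes of 1.82 ± 0.36 and 2.53 ± 0.41 (adjusted p of 0.271 and 0.208 from edgeR). Reg3b, its close relative, overlapped in 1 library of each group (0.323 to 5.26 CPM against 5.11 to 19.6 CPM). The oxidases Duox2 and Nox1, which release hydrogen peroxide and superoxide at the mucosa, had log2 fold changes of 0.70 and 0.98 and overlapped. The abundant members did not separate: Lypd8, which keeps flagellated bacteria from the epithelium, was at 11438 to 15268 CPM and 12638 to 14662 CPM, and Dmbt1 and Saa1 had log2 fold changes of 0.32 and -0.12.

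Transcripts of neutrophils and of inflammatory activation were low in most libraries and high in a few. Il1b, the cytokine IL-1β, had 1.49, 2.82, 1.48 and 3.69 CPM in BSHlow and 66.1, 22.7, 5.48 and 8.76 CPM in BSHhigh. S100a8 and S100a9, the calprotectin subunits that mark neutrophils, were under 1 CPM in BSHlow replicates 1 to 3, at 3.88 and 7.37 CPM in BSHlow replicate 4, and at 1.1 to 36.9 and 3.83 to 73 CPM in BSHhigh. BSHhigh replicate 1 was the highest library for Il1b, S100a8, S100a9, Cxcl2 and Trem1. Of 10 listed neutrophil genes tested, 7 were higher at an unadjusted p under 0.05 (background 5.3%). The other 3 had negative log2 fold changes, down to -0.48. In 3 of 10 the groups did not overlap (background 3%), and the median log2 fold change was 2.39. It was 1.52 without BSHhigh replicate 1, and 0.95 over the 4 members with at least 10 counts in every library. Members such as S100a8 and Cxcl2, under 1 CPM in BSHlow replicates 1 to 3, passed the filter on low counts through the libraries in which they were high, so these counts are a description only. Summed over the list, the level was 150 to 229 CPM in BSHlow and 241 to 506 CPM in BSHhigh. Much of it came from Ly6g, which had 156, 140 and 189 CPM in BSHlow replicates 1 to 3, where S100a8 was under 1 CPM. Mmp8 and Retnlg were under the filter on low counts, with 0 counts of each in BSHlow replicate 1. The part of neutrophils in the antibacterial result was not tested.

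Genes of cholesterol synthesis and uptake lay slightly to the positive side in 22 of 23, with a median of 0.33, and 6 of 23 had an unadjusted p under 0.05 (background 5.3%). In 5 the groups did not overlap (background 3%). BSHlow replicate 4 had the highest list level of its group, and without it and BSHhigh replicate 1 the median was 0.66 and 19 of 23 passed the unadjusted threshold. Hmgcs1, the synthase that makes HMG-CoA, had 144, 256, 170 and 451 CPM against 323, 371, 375 and 415 CPM, where BSHlow replicate 4 was the highest of all 8. Mvd, of the mevalonate steps, had 26.4, 38.9, 26.9 and 46.8 CPM in BSHlow and 48.9, 48.9, 54.2 and 54 CPM in BSHhigh. Its groups did not overlap, by a log2 fold change of 0.57 ± 0.18 (adjusted p of 0.408 from edgeR). Pmvk, of the same steps, had one of 0.29 without overlap, and Fdps one of 0.51 with reads divided among similar genes. Srebf2, the factor that drives the pathway, had a log2 fold change of 0.00 ± 0.09. The sterol element, searched on both strands as ATCAC, any base, and CCAC, was in 0 of 15 matched promoters of the list. These letters were in 73 of all 27025 genes (0.27%), too few for 15 promoters to show a difference. Variants of the element were not searched.

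Genes of xenobiotic metabolism lay on the other side, with 1 of 21 positive and a median of -0.44. Only 4 of 21 were lower at an unadjusted p under 0.05 (background 3.92%) and in 2 the groups did not overlap (background 2.48%). The median was -0.24 and the count 1 without BSHlow replicate 4, the highest library of the list, and BSHhigh replicate 1. Gstm1, a glutathione transferase whose reads RSEM divided in 7 libraries, had 217, 211, 198 and 197 CPM in BSHlow and 133, 177, 169 and 128 CPM in BSHhigh, a log2 fold change of -0.44 ± 0.11. Cyp2s1, a cytochrome P450 of epithelia, had 141 to 196 CPM against 102 to 141 CPM. Cyp2d26 and Ces1g, another P450 and a carboxylesterase, were highest in BSHlow replicate 4 (44.4 and 5.95 CPM) and reached 12 and 1.92 CPM at most in BSHhigh. Colonocyte genes had a median of -0.14, with 0 higher and 3 of 19 lower at the unadjusted threshold (background 5.3% and 3.92%). Their median was 0.026 without BSHlow replicate 4. Fatty acid oxidation genes had a median of -0.23, with 0 higher and 2 of 21 lower, which turned to 0.12 without BSHlow replicate 4 and to 0.064, with 2 higher and 0 lower, without both libraries that stood apart. Oxidative phosphorylation genes had a median of -0.11, with 0 of 31 at that threshold in either direction, and of -0.049 without both.

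Genes that sense and carry bile acids, the substrates of BSH, gave no count above background: 0 of 12 tested had an unadjusted p under 0.05, and the median was -0.14. Nr1h4 (FXR) had 52.5, 35.3, 37 and 47.4 CPM in BSHlow and 47.5, 36.6, 40.5 and 42.6 CPM in BSHhigh, with a log2 fold change of -0.04 ± 0.14. Its levels were interleaved between the groups. The vitamin D receptor Vdr, also a sensor of lithocholic acid, had a log2 fold change of -0.13 ± 0.11, the pregnane X receptor Nr1i2 of -0.06 ± 0.11, the exporter Abcc3 of -0.16 ± 0.12 and the shared partner Rxra of -0.18 ± 0.08. Gpbar1 (TGR5), the membrane receptor, was under the filter, with 3, 13, 5 and 3 counts in BSHlow and 8, 11, 12 and 6 counts in BSHhigh. The FXR targets Nr0b2 and Fgf15, which act mainly in liver and ileum, had 0 and 1 count over all 8 libraries.

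Genes that respond to glucocorticoids went both ways, with 5 of 12 lower and 2 higher at an unadjusted p under 0.05 (background 3.92% and 5.3%). Zbtb16, a zinc finger repressor induced by these hormones (chr9:48654297-48836222, GRCm38, minus strand), had the smallest p of all genes. It had 13, 21.6, 16 and 19.3 CPM in BSHlow and 6.81, 7.34, 5.72 and 6.38 CPM in BSHhigh. No BSHhigh library came near the BSHlow range, and the log2 fold change was -1.41 ± 0.18, with an adjusted p of 0.181 from edgeR and between 2.55e-08 and 0.551 over the alternatives. Klf9 and Per1, immediate targets of the receptor and, for Per1, a clock gene, had log2 fold changes of -0.36 ± 0.09 and -0.52 ± 0.11 without overlap, and Tsc22d3 (Gilz) -0.46 with overlap. Sgk1, the kinase that holds sodium channels at the membrane, had 95.1, 162, 240 and 761 CPM in BSHlow and 110, 85.3, 95.3 and 77.9 CPM in BSHhigh. BSHlow replicate 4 set much of its log2 fold change of -1.77 ± 0.57, which was -0.94 without the pair that stood apart. The 2 that were higher were the metallothioneins Mt1 (31.9 to 39.3 CPM against 42.5 to 65.8 CPM) and Mt2 (6.54 to 12.1 CPM against 13.9 to 41.7 CPM), which also respond to zinc.

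Wnt target genes, the program that loss of Apc switches on, were negative in 11 of 13, with a median of -0.31. Of them, 3 were lower at the unadjusted threshold (background 3.92%). However, the median was 0.05 without the libraries that stood apart. Axin2, a feedback inhibitor of the pathway, had 25.1, 26.8, 31.1 and 23 CPM in BSHlow and 20.2, 17.7, 23.4 and 22 CPM in BSHhigh, and Rnf43, another, had 37.1 to 51.2 CPM against 26.5 to 38 CPM. The groups of both overlapped by little, and the log2 fold changes were -0.35 ± 0.12 and -0.45 ± 0.14. Myc had a log2 fold change of -0.31 ± 0.14 and Ccnd1 of 0.18 ± 0.23, both with overlap. Mmp7, a matrix protease and Wnt target, was at 0.337 to 0.748 CPM in BSHlow replicates 1 to 3 and at 11.9 CPM in replicate 4, against 0.974 to 6.5 CPM in BSHhigh, so that its log2 fold change of -0.36 ± 1.14 turned to 1.33 without the libraries that stood apart. Cell cycle genes were positive in 21 of 22 by a small median of 0.19, with 0 at an unadjusted p under 0.05 in either direction.

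The chemokine Ccl28, which draws IgA plasma cells to the mucosa, had 341, 314, 215 and 257 CPM in BSHlow and 410, 235, 353 and 317 CPM in BSHhigh. The groups were interleaved, with a log2 fold change of 0.22 ± 0.19 and an adjusted p of 0.758 from edgeR. Foxp3, the factor of regulatory T cells, was at 0.194 to 1.49 CPM and 0.187 to 1.83 CPM, a log2 fold change of -0.07 ± 0.74. Plasma cell and IgA genes had a median of 0.06 with 0 of 13 at the unadjusted threshold. Regulatory T cell genes had one of 0.10 with 1 of 11 higher (background 5.3%). Without BSHlow replicate 4 these medians were -0.16 and -0.046, and without BSHhigh replicate 4 -0.26 and -0.084, and that of plasma cell genes was -0.074 without BSHlow replicate 3.

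Outside the lists, the genes with the next smallest p after Zbtb16 had a small spread within each group. Slc39a11, a zinc transporter of the ZIP family, had 84.8, 83.3, 72.8 and 80.1 CPM in BSHlow and 134, 121, 112 and 132 CPM in BSHhigh, and it overlaps Cog1 and Sstr2 in the annotation. Lpo, the secreted lactoperoxidase, had 10.4, 10.6, 7.55 and 7.18 CPM against 17.9, 23.6, 22.3 and 19.7 CPM. Irs2, an adaptor of the insulin receptor, had 40.5, 42.2, 49.6 and 40.6 CPM against 28.3, 29.6, 28.6 and 27.8 CPM. The groups of all 3 did not overlap, with log2 fold changes of 0.64 ± 0.08, 1.22 ± 0.17 and -0.60 ± 0.08 and the same adjusted p of 0.181 from edgeR. Ptprn2, a protein of secretory granules, had a log2 fold change of 0.68 ± 0.10 and the same adjusted p.

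Among genes without overlap and at 1 CPM or more on average, the largest positive differences were those of Iglv3 (4.61), Il1b (3.43), Trem1 (3.29), Sptssb (3.23), Kcnh3 (3.16), Acod1 (2.88), Kcnj16 (2.86), Ccn3 (2.74), Reg3g (2.53) and Ffar2 (2.04). Ccn3, a secreted matricellular protein (chr15:54745702-54754039, GRCm38, plus strand), was the most abundant of them, with 37.9, 42, 11.9 and 27.9 CPM in BSHlow and 317, 208, 92.2 and 182 CPM in BSHhigh. The lowest BSHhigh library was above the highest BSHlow library, and the adjusted p was 0.208 from edgeR. Ffar2, a receptor for short-chain fatty acids, had 6.63, 3.17, 2.16 and 4.27 CPM against 27, 18.5, 9.43 and 11.6 CPM. Several of the others rested on 1 or 2 libraries or were near 0 in BSHlow. In BSHlow, Iglv3 had 0.323 to 1.42 CPM, Trem1 0.149 to 0.742, Sptssb 0 to 1.16, Kcnh3 0 to 1.71 and Kcnj16 0 to 0.978. Kcnj16 had 1.55 to 6.90 CPM in BSHhigh. Ratios to such low levels are a description only. Without BSHhigh replicate 1 and BSHlow replicate 4 the log2 fold changes were 2.04 for Trem1, 1.69 for Sptssb, 1.58 for Kcnh3 and 1.76 for Acod1. Iglv3, a light chain variable segment, had 33.7 and 40.1 CPM in BSHhigh replicates 1 and 4 and 1.99 and 2.86 CPM in the other two, and Acod1 and Trem1, both of activated myeloid cells, were highest in BSHhigh replicate 1 (24.1 and 13.4 CPM).

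The largest negative differences were those of Gm17322 (-3.07), Gm45889 (-2.24), Mptx1 (-2.07), Me3 (-2.01), Fxyd4 (-1.93), Enpep (-1.74), Naaladl1 (-1.55), Mfap3l (-1.54), Slc7a8 (-1.44) and Zbtb16 (-1.41). Mptx1, a pentraxin of the mouse gut, had 1419, 1624, 923 and 2139 CPM in BSHlow and 159, 378, 626 and 288 CPM in BSHhigh, with reads that RSEM divided with similar genes in all 8 libraries. Fxyd4, which tunes the sodium pump, had 26.1, 30.7, 55.2 and 166 CPM against 16.1, 25.2, 15.9 and 15.3 CPM. BSHlow replicate 4 was the highest library for Fxyd4, Mptx1, Enpep, Naaladl1, Me3, Slc7a8, Gm17322 and Gm45889. Without it and BSHhigh replicate 1 the log2 fold changes were -0.98 for Fxyd4, -1.17 for Enpep and Me3, -0.92 for Naaladl1 and -0.93 for Slc7a8, while Mptx1 (-1.61), Mfap3l (-1.59) and Zbtb16 (-1.37) moved less.

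Normal colon at 2 weeks came from other libraries and so gave separate values of the same contrast. There edgeR called 1 of 13752 genes higher (0.00727%), St3gal4, and 0 lower, where an unadjusted p under 0.05 was met by 527 (3.83%) and 408 (2.97%) and DESeq2 called 20 and 8. Without BSHlow replicate 4 of 2 weeks edgeR called 34 higher and 3 lower. Hoxb13, a gene of the distal colon, differed by a log2 fold change of 2.76 at 2 weeks, and the part of position in those values was not tested. Of the 729 genes that were higher at 12 weeks at an unadjusted p under 0.05 and tested at both times, 385 (52.8%) were positive at 2 weeks, against 49.5% of all 13341 genes, and 63 (8.64%) were also higher at that threshold at 2 weeks, against 3.86% of all. Of the 526 lower genes, 289 (54.9%) were negative at 2 weeks and 15 (2.85%) were lower at that threshold, against 2.95% of all.

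The interferon lists had positive medians at both times. The goblet cell list had a positive median at 12 weeks and a negative one at 2 weeks. That of the O-glycosylation list was positive at 12 weeks and near 0 at 2 weeks. At 2 weeks the interferon-stimulated genes had a median of 1.23 with 12 of 21 higher at the unadjusted threshold (background 3.83%), the GTPases 1.01 with 7 of 12, and MHC class I genes 0.53 with 12 of 13. BSHlow replicate 4 of 2 weeks lay inside the BSHhigh range of the interferon-stimulated list (mean log2 CPM 5.30 against 4.88 to 5.97). The other BSHlow libraries were at 3.14 to 3.42. For GTPases BSHlow replicate 4 was at 3.67, against 3.39 to 4.08 in BSHhigh. Zbp1 had a log2 fold change of 1.48 at 2 weeks, Irf7 of 1.13 and Nos2 of 1.94, beside 1.72, 0.62 and 1.82 at 12 weeks. At 12 weeks the medians of MHC class II, T cell and B cell follicle genes changed sign with the library left out. At 2 weeks they were 1.23, 0.90 and 1.26, so these lists moved with the interferon lists. Their part in the interferon values was not tested. Goblet cell genes had a median of -0.11 at 2 weeks, with 4 of 20 positive. O-glycosylation genes had one of -0.03, with 10 of 21 positive and 2 higher and 1 lower at the unadjusted threshold. St3gal4, the gene that edgeR called at 2 weeks (log2 fold change 1.11), belongs to this list. Cell cycle genes were negative in 22 of 22 at 2 weeks, with a median of -0.46 and 12 lower at the unadjusted threshold (background 2.97%), in contrast to the median of 0.19 at 12 weeks.

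The difference between the effects at the 2 times was tested in all 16 libraries. Of 15532 genes, 0 differed past an adjusted p of 0.05 in edgeR (0% in each direction), the smallest adjusted p was 0.113, and 710 (4.57%) and 425 (2.74%) had an unadjusted p under 0.05 in the direction of a more positive and a more negative effect at 12 weeks. DESeq2 called 14 and 7 past the adjusted p and the fold. At the unadjusted threshold the effect was more positive at 12 weeks for 11 of 20 goblet cell genes, 12 of 21 O-glycosylation genes and 9 of 22 cell cycle genes, and for 0 of 21 interferon-stimulated genes. It was less positive for 0, 2, 0 and 1 genes of these lists, St3gal4 among the O-glycosylation genes. Spink4 had a difference of 2.19 between the log2 fold changes and Muc2 of 1.45, but neither passed the adjusted test of the difference in edgeR.

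**Figure D4:**
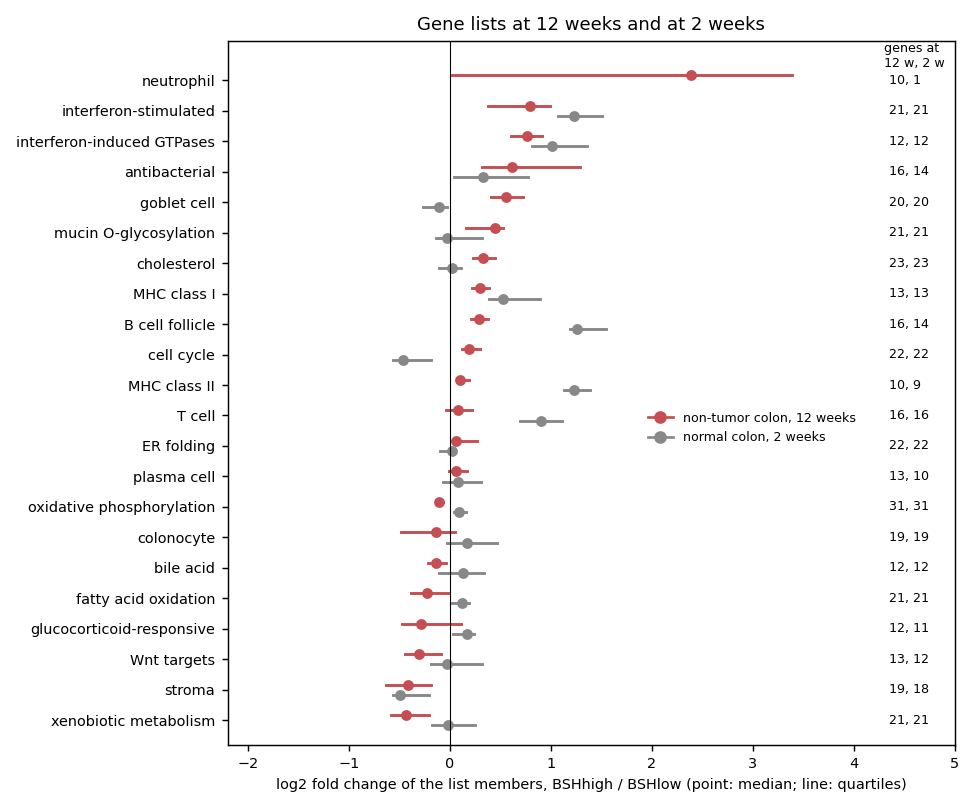
The x axis is the log2 fold change of BSHhigh over BSHlow for the members of each gene list (y axis), with the median as a point and the quartiles as a line, for non-tumor colon at 12 weeks (red) and normal colon at 2 weeks (grey); the digits give the genes tested at each time. The interferon-stimulated medians were 0.79 and 1.23, the goblet cell medians 0.56 and -0.11 and the B cell follicle medians 0.29 and 1.26.

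**Figure D5:**
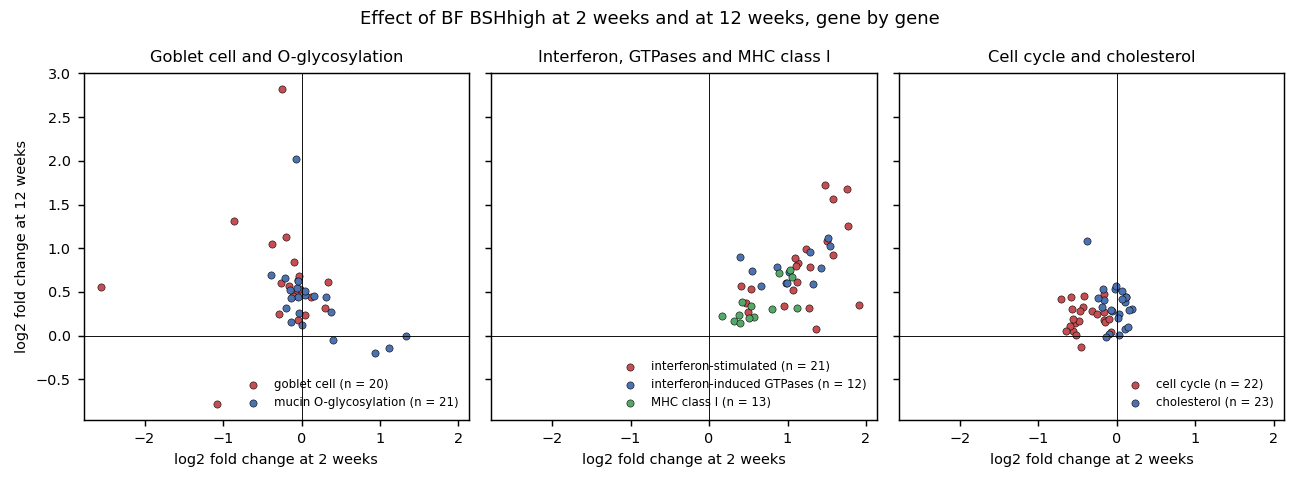
Each point is a gene of a list, with its log2 fold change (BSHhigh over BSHlow) at 2 weeks on the x axis and at 12 weeks on the y axis. Interferon-stimulated, GTPase and MHC class I genes lay in the upper right, goblet cell and O-glycosylation genes mostly above 0 on the y axis (19 of 20 and 18 of 21) and on both sides of 0 on the x axis, and cell cycle genes to the left of 0 on the x axis.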

How the data were processed

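The labels describe total RNA libraries of mouse colon, and the study's methods stranded mRNA libraries. Per the labels, cutadapt, STAR, Picard and RSEM were used by the authors with the mm10 genome, and the deposited values are RSEM's expected counts per gene without normalization; the annotation and the strand setting of the counting were not given in the sources used here. All 55450 gene identifiers and symbols matched GENCODE M21 (GRCm38), whose coordinates were used. Of the deposited expected counts of the 16 libraries used, 4.13% were not whole (tolerance 1e-06), because RSEM divides reads among similar genes, and 1 row without a gene name was left out. Another 7 columns, of tumors, were not used.

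Rounded expected counts were tested by edgeR 4.0.16 under R 4.3.3, by quasi-likelihood with TMM scaling and filterByExpr. The fits were on the 8 libraries of each time, and on all 16 for the difference between times. CPM used the TMM-scaled library size. A prior count of 2 was added for log2 CPM only, and fold changes were those of the fit with edgeR's smaller default prior. P-values were adjusted by Benjamini-Hochberg over all genes tested, and the fits were checked on simulated data, where DESeq2 recovered more changed genes than edgeR and also called more unchanged ones. For the 12-week comparison edgeR recovered 39 of 100 genes changed 2-fold and 80 of 100 changed 4-fold, and called 8 unchanged ones. DESeq2 recovered 60 and 89 and called 37. A count of 0 in edgeR therefore does not show that no gene changed. Alternatives were DESeq2 1.42.0, the edgeR likelihood-ratio test, limma-voom (limma 3.58.1), other scalings and filters, a replicate block, all 16 libraries and leaving out libraries. Library measures were compared by two-sided exact permutation tests, which cannot go below p = 0.0286 with 4 against 4. Shares and totals cover counting error only. For the 12 pairs of replicates of 12 weeks, chi-square values (genes of 20 counts or more) were 16.6 to 68 per degree of freedom, so none was counted as 1 sample.

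The 44 gene lists (710 entries, 645 tested) and the comparison were chosen with earlier results of these data known. Genes were named if they were Ccl28, Axin2, Mmp7, Myc, Ccnd1, Gpbar1, Nr1h4 or Foxp3, among the 10 largest differences per direction at an unadjusted p under 0.05 without overlap and at a mean of at least 1 CPM, among the 4 most abundant or those at an unadjusted p under 0.05 of a described list, or among the 5 smallest p. Others, such as Hoxd10 to Hoxd13, Hoxb13, Mmp8 and Retnlg, were named after their values were seen. Another 4 genes of the lists that the rule names are not reported here by name, though list counts and medians include them. Promoters were taken from RefSeq (GRCm38.p6).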

Additional observations from a re-analysis of the deposited data

Results flagged for a closer look

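In groups of 4 libraries, a highest or lowest value whose gap to the nearest of the others took up more of the group's range than Dixon's critical value allows was marked, over 378 sets of values. Chance alone marks about 1 in 20 such sets, and 32 were marked. Of the BSHlow group, replicate 4 was the highest library for Mmp7 (11.9 CPM), Gm17322 (17.9 CPM), Zg16 (5207 CPM), Ces2c (648 CPM), S100a9 (7.37 CPM), S100a8 (3.88 CPM), Cxcl2 (4.53 CPM), Sec61a1 (247 CPM) and Cyp2d26 (44.4 CPM). It was also the highest for the mean log2 CPM of the bile acid (4.70), fatty acid oxidation (6.93), oxidative phosphorylation (8.10) and neutrophil (2.51) lists, and the lowest for the cell cycle (4.29) and mast cell (0.33) lists. Of the BSHhigh group, replicate 1 was the highest library for Sptssb (22.2 CPM), Kcnh3 (16.5 CPM), S100a9 (73 CPM) and Cxcl2 (36.1 CPM), for the oxidative phosphorylation (7.87), glucocorticoid-responsive (5.71) and mitochondrial (10.50) lists and for the share of mitochondrial counts (6.85%). It was the lowest for the posterior Hox list (2.67).

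Other libraries were marked less often. BSHlow replicate 3 was the highest of its group for Mfap3l (35.1 CPM) and Reg3b (5.26 CPM), and BSHlow replicate 2 for the heat shock list (6.54). In BSHhigh, replicate 2 was the lowest for Myc (16.3 CPM) and the highest for Fxyd4 (25.2 CPM), replicate 3 was the highest for the squamous list (2.39), and replicate 4 was the lowest for the xenobiotic list (4.48) and the highest for the share of immunoglobulin counts (1.36%).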

How the results depend on the processing

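Counts past the adjusted p of 0.05 and the log2 fold of 1 depended on the test. At 12 weeks, 0 higher and 0 lower became 39 and 14 with DESeq2, 30 and 10 with the edgeR likelihood-ratio test, 1 and 0 with the replicate block (Ccn3, adjusted p = 0.029 from edgeR) and 1 and 0 with all 16 libraries in one fit (Gm1965), and stayed at 0 and 0 with limma-voom, each other scaling and filter, and each library left out. At 2 weeks, 1 and 0 became 20 and 8 with DESeq2, 20 and 11 with the likelihood-ratio test, 4 and 1 with no filter on low counts, 0 and 0 with a minimum of 4 counts on average without the least variable genes, and 0 and 1 with the replicate block. Between the times, 0 and 0 became 14 and 7 with DESeq2, 17 and 9 with the likelihood-ratio test and 1 and 0 with the replicate block. Genes with a less positive effect at 12 weeks at an unadjusted p under 0.05, 425 of 15532, were 274 by total library size and 645 with no filter. The cause of these differences was not tested.

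Same-numbered BSHlow and BSHhigh libraries had correlations of -0.08, -0.18, 0.19 and -0.15 in their deviations from the group means. Differently numbered libraries had -0.26 to 0.23. Neither cage nor animal was given, so a pairing by number was neither shown nor excluded, and the block is an alternative fit only. Under the block the log2 fold change of Mmp7 was 0.70, of Saa1 0.11 and of Ces2c 0.0029. With limma-voom, that of Mmp7 was 0.74 and of Saa1 0.11. B3gnt7, at 0.00, was -0.0018 with upper-quartile scaling, -0.0013 by total library size and -0.0018 with 4 counts on average, where Srebf2 was -0.0031. The median of the neutrophil list was 0.95 with at least 10 counts in every library.

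Leaving out libraries, 1 at a time or BSHlow replicate 4 and BSHhigh replicate 1 together, gave ranges. The number of lower genes at an unadjusted p under 0.05 at 12 weeks ran from 370 to 749, genes called at 2 weeks from 0 to 34 higher and from 0 to 3 lower, genes called between the times from 0 to 4, and genes without overlap from 579 to 1179 higher and from 513 to 1003 lower, since fewer libraries separate more easily. List medians ran from 0.25 to 0.66 (cholesterol), -0.27 to -0.044 (clock), 0.13 to 0.29 (enteroendocrine), -0.15 to 0.22 (anterior Hox), -0.50 to 0.86 (mast cell), -0.20 to 0.33 (squamous), -0.0036 to 0.17 (stem cell), -0.41 to 0.054 (Wnt targets) and -0.43 to -0.14 (xenobiotic). Gene values turned sign for Mmp7 (-1.36 to 2.32, with 1.33 without both), B3gnt7 (-0.14 to 0.10, -0.029 without both), St3gal4 (-0.35 to 0.25, 0.19), Ces2c (-0.33 to 0.42, 0.26), Saa1 (-0.40 to 0.47, 0.36), Cdkn1a (-0.35 to 0.045), Nr1i2 (-0.15 to 0.018, 0.0042), Ugt2b34 (-0.15 to 0.038), Foxp3 (-0.90 to 0.33), Nr1h4 (-0.13 to 0.072), Hspa5 (-0.14 to 0.15), Hsp90b1 (-0.040 to 0.16), Sox4 (-0.018 to 0.12) and Srebf2 (-0.043 to 0.053). BSHhigh minus BSHlow differences turned sign for genes detected (-5.25 to 207), total counts (-359065 to 1027940) and, in percentage points, the share of immunoglobulin (-0.254 to 0.267), of mitochondrial counts (-0.676 to 0.133) and of the 50 most abundant genes (-0.580 to 1.15). Of 44 list medians, 25 changed sign under at least 1 alternative, among them colonocyte (-0.40 to 0.026), fatty acid oxidation (-0.31 to 0.12), MHC class II (-0.32 to 0.38), T cell (-0.39 to 0.38), B cell follicle (-0.87 to 0.62), plasma cell (-0.26 to 0.65) and stroma (-0.75 to 0.19), all by a library left out. The other named genes kept their direction, and apart from Ccn3 under the block passed an adjusted p only with DESeq2 or the likelihood-ratio test.

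With 4 libraries per group, totals of 13330888 to 17103225 counts and the spread between these replicates, no gene had an adjusted p under 0.181 in edgeR. The 2 times also differ in tissue label, non-tumor against normal colon, and age and tissue cannot be told apart.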

Other observations

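Lists that belong to no comparison above had these values at 12 weeks. Enteroendocrine genes were positive in 12 of 15, with a median log2 fold change of 0.27. At an unadjusted p under 0.05, 2 of 15 were higher (background 5.3%). Their mean log2 CPM was 3.23 to 3.44 in BSHlow and 3.44 to 3.76 in BSHhigh and did not overlap. Together with the O-glycosylation, interferon-stimulated and antibacterial lists this made 4 of 44 lists whose level in each BSHhigh library was above that in each BSHlow library, and 0 were below. Stroma genes were negative in 15 of 19, with a median of -0.42 and 0 at the unadjusted threshold, which was 0.19 without BSHlow replicate 2 and -0.75 without BSHlow replicate 4 and BSHhigh replicate 1, and their summed level ran from 808 to 5331 CPM in BSHlow and from 1386 to 2419 CPM in BSHhigh. Clock genes had a median of -0.19 and 3 of 18 lower at that threshold (background 3.92%). Genes of ribosome biogenesis (-0.07), the heat shock response (-0.07), cell junctions (-0.03) and glycolysis (0.01) had medians near that of all genes.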
